A study of Mus musculus with 10 samples.

Results

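The genes described here are 13 small nucleolar RNAs (snoRNAs) and small Cajal body RNAs (scaRNAs) measured in type 2 conventional dendritic cells (cDC2s) of mouse spleen. They are the genes with a symbol starting in Snord, Snora or Scarna that stood at 1 TPM or more in at least 3 of the 6 cDC2 libraries. TPM is an abundance divided by transcript length and scaled to the same total in each library. There were 13 such genes among 150 with a matching symbol and 45706 in the table. The members are 3 Snord genes (Snord15a, Snord15b and Snord17), 6 Snora genes (Snora7a, Snora23, Snora70, Snora73a, Snora73b and Snora74a) and 4 Scarna genes (Scarna2, Scarna6, Scarna10 and Scarna13). Their level in cDC2s chose them, so that they are present there is not a finding. The genotype contrast and the T cell libraries did not enter that rule, though the list was chosen with earlier results of these data known.

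RNA was sequenced from spleen cDC2s and T cells of 2 mouse genotypes. By the usual reading of the genotype names, Cd47f/f mice carry floxed Cd47 alleles and Cd47ΔT mice lack Cd47 in T cells, so the cDC2s are not the targeted cells. CD47 on a cell's surface signals to phagocytes not to engulf it. There were 3 cDC2 libraries and 2 T cell libraries per genotype. The sources used here give no age, sex, Cre line or sorting gate. Whether each library is a separate animal is not stated either, so a p-value here reflects library-to-library spread alone, part of which may be technical.

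Small nucleolar RNAs guide chemical modification of ribosomal RNA in the nucleolus. Box C/D snoRNAs, named Snord, direct 2′-O-methylation with the methyltransferase fibrillarin, and box H/ACA snoRNAs, named Snora, direct pseudouridylation with dyskerin. scaRNAs carry the same boxes and act on the spliceosomal RNAs in Cajal bodies. Most are cut from introns of host genes, many of which encode ribosomal proteins. These RNAs carry no poly(A) tail, so a library selected on poly(A) is known to hold little of them.

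The sequences of 6 members are shown because the results turn on their length, their boxes and the likeness of pairs. All are transcript sequences of GENCODE M21, on GRCm38, written 5′ to 3′ as DNA. Capitals mark a C box (NTGATGA, within 20 bases of the 5′ end) and a D box (CTGA, within 20 bases of the 3′ end), or, in the Snora genes, an ACA 3 bases before the 3′ end, each searched on the transcript strand only.
Snord15a: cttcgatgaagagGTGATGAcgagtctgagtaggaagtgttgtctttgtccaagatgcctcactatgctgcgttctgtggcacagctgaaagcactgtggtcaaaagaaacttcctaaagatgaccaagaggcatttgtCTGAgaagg
Snord15b: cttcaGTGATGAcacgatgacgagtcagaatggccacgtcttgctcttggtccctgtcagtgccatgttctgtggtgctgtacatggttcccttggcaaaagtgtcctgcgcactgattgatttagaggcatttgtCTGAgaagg
Snord17: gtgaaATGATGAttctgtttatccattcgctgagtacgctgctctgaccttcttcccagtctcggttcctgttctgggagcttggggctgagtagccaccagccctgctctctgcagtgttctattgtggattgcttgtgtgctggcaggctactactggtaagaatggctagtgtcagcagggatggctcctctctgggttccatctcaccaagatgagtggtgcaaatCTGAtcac
Snora73a: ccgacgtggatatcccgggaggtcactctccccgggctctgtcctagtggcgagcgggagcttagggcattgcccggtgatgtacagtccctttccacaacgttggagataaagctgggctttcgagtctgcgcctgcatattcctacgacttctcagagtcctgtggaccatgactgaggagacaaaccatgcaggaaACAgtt
Snora73b: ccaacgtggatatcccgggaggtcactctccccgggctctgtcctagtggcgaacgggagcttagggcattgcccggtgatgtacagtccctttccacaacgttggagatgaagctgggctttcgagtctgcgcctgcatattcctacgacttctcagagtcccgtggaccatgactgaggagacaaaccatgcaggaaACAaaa
Snora70: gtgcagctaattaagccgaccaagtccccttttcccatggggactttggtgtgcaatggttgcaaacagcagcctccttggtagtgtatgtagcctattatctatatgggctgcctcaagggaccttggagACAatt

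Both C and D boxes were found in 68 of the 99 Snord genes (68.7%), in none of the 42 Snora genes and in 4 of the 9 Scarna genes. Among 4168 miRNA, snRNA, misc_RNA and ribozyme genes with 1 short transcript, 1 held both (0.0240%). The ACA stood at its place in 35 of 42 Snora genes (83.3%) and in none of the Snord genes, against 2.28% of the comparison genes. A match is a description of letters, and a box with another spelling is not counted. All 3 Snord members, Scarna6 and Scarna10 held both C and D boxes, and Scarna13 and every Snora member whose sequence was read held the ACA. In Scarna2 no C box of this spelling was found. Snord15a (148 bases, chr7:99482785-99482932, minus strand) and Snord15b (145 bases, chr7:99479563-99479707, minus strand), both guides of 28S rRNA methylation, lie in the same host gene, Rps3. They were 60.3% identical when aligned and share their last 21 bases, including the D box. Snora73a (chr4:132352775-132352979) and Snora73b (chr4:132352322-132352526), both on the minus strand, are copies of U17, which is needed for processing of 18S rRNA. Each is 205 bases long and they were 96.6% identical. Counted from 1 at the 5′ end, from Snora73a to Snora73b, the 7 differences were G3A, G54A, A111G, T164C, G203A, T204A and T205A. Reads from 1 copy can therefore fit the other, and the split of signal between them is uncertain.

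Below a length that differed between libraries, none of these genes had a value, while a gene above it could still be listed at 0. Of the genes with a matching symbol that a cDC2 library covered, 16 of 25 were above 0 in Cd47f/f library 1, 24 of 47 in library 2 and 9 of 13 in library 3. In Cd47ΔT libraries 1 to 3 these were 11 of 16, 17 of 27 and 12 of 20. Lengths are those of the longest annotated transcript. No gene of the table shorter than 129 bases was above 0 TPM in any cDC2 library, although 4762 genes are that short. The shortest gene above 0 measured 137, 129 and 147 bases in Cd47f/f libraries 1, 2 and 3. In Cd47ΔT libraries 1, 2 and 3 it measured 140, 136 and 138 bases, so the limits of the genotypes overlapped. In the T cell libraries the limit lay between 133 and 135 bases. Of the 150 genes with a matching symbol, 103 are shorter than 129 bases, and all 103 were listed at 0 in all 10 libraries. These include 95 of the 99 Snord genes, whose median length is 84 bases. A further 34 genes fall between 129 and 147 bases, where a gene could have a value in some libraries only. The remaining 13 are at least 147 bases long, and 10 of these 13 are members. How the limit arose was not tested, and the annotation behind the table may give other lengths.

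**Figure D1:**
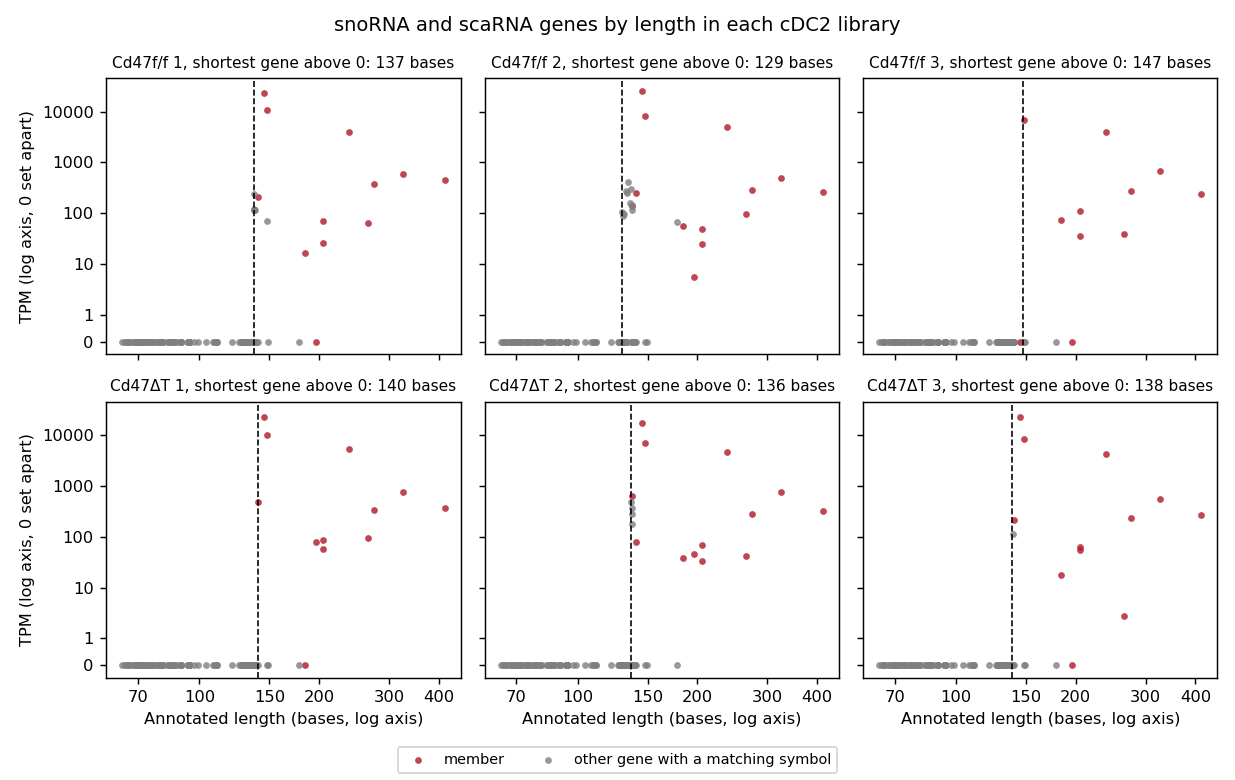
Each panel is 1 cDC2 library and each point 1 of the 150 genes with a Snord, Snora or Scarna symbol, by annotated length (horizontal log axis, bases) and TPM (vertical log axis, with 0 set apart at the bottom). The dashed line is the shortest gene of the whole table above 0 TPM, from 129 bases in Cd47f/f library 2 to 147 bases in Cd47f/f library 3. By this definition every point to its left is at 0.

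Members therefore fall into 2 kinds. The length of 10 members was covered in all 6 cDC2 libraries, whereas Snord15b (145 bases) and Snora7a (140 bases) were covered in 5 and Snora70 (137 bases) in 3. Each of these 3 genes was above 0 in every library that covered its length. In the other libraries its 0 follows from the definition of the limit as the shortest gene above 0. A 0 for them is given here only as listed at 0. The level rule itself was met by a wide margin for most members. Just inside it were Snora74a, at 5.5, 45.8 and 78.9 TPM in its highest 3 cDC2 libraries, and Snora23, at 37.9, 55.9 and 73.3 TPM. Just outside were Snora16a (the 137-base copy), at 239 and 275 TPM in 2 libraries, and Snora21, at 119 and 366 TPM in the same 2. Both were listed at 0 in the other 4, of which Cd47f/f library 2 alone covers their 137 bases.

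No member passed the genotype test in cDC2s. limma called 0 of 13 at a Benjamini-Hochberg adjusted p under 0.05 (smallest adjusted p = 0.466, Snora74a), where 0.63% of the 12058 genes tested were called, 30 higher (0.249%) and 46 lower (0.381%) in Cd47ΔT. That background is itself unsteady, since leaving out any 1 of the 6 libraries left 0 to 9 genes called higher and 0 to 6 lower. At an unadjusted p under 0.05 the count was also 0 of 13, where 13.4% of all genes passed. The genotypes overlapped in all 13 members, where 19.9% of all genes did not overlap. In Snord15b and Snora70 that overlap rested only on zeros in libraries that do not cover their length. The log2 fold change, Cd47ΔT over Cd47f/f on log2(TPM + 1), was above 0 in 7 members and below 0 in 6. Its median was 0.0461, beside -0.0729 over all genes tested. With zeros in libraries that do not cover a gene's length left out, an alternative chosen after seeing the data, 6 members were above 0 and 7 below, and the median was -0.0320, beside -0.0734 over all genes. With 3 libraries per genotype a missed threshold does not show that levels were alike, so each member's 95% interval is given below.

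**Figure D2:**
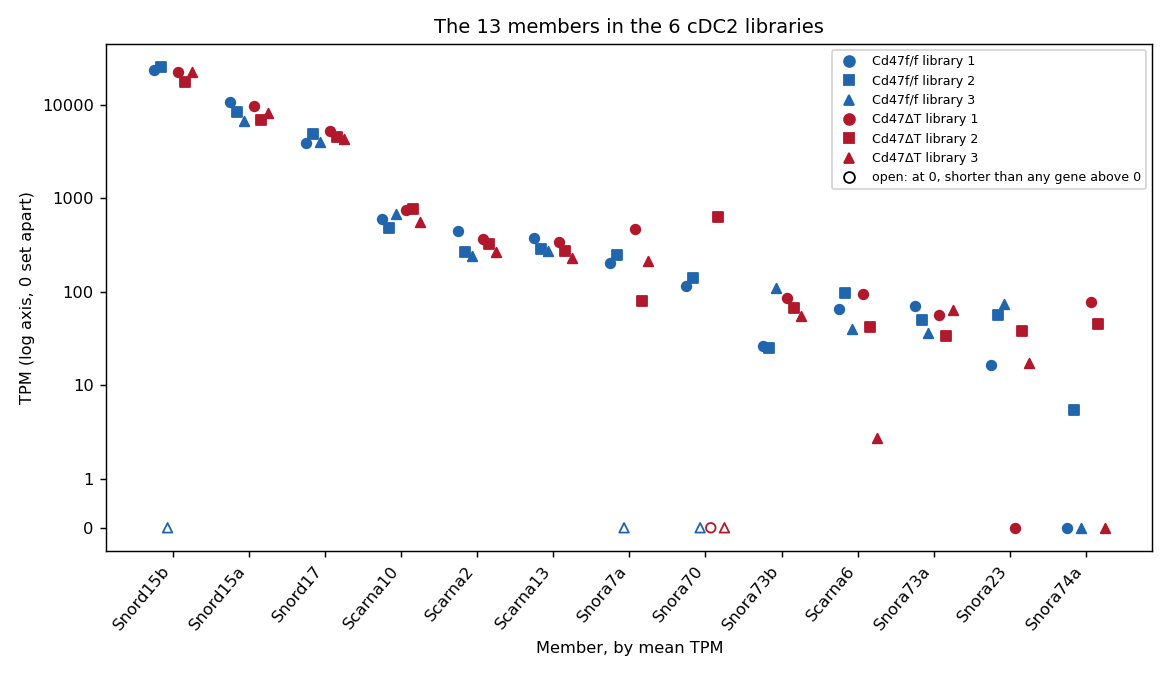
TPM (log axis, 0 set apart) of the 13 members in each cDC2 library, ordered by mean, with Cd47f/f in blue and Cd47ΔT in red and the marker shape giving the library number. Open markers are values at 0 in a library whose shortest gene above 0 is longer than the member. The genotypes overlap in all 13 members, in Snord15b and Snora70 only through open markers.

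The 3 Snord members had the highest mean levels of the 13. Snord15a, which lies in an intron of Rps3 in every annotated transcript, stood at 10671, 8352 and 6760 TPM in Cd47f/f libraries 1 to 3. In Cd47ΔT libraries 1 to 3 it stood at 9848, 6918 and 8250 TPM. The lowest and the highest library were both controls. Its mean was 8594 ± 1967 TPM in Cd47f/f and 8339 ± 1467 TPM in Cd47ΔT (SD, n = 3 each). The log2 fold change was -0.0334 ± 0.20 (SE; 95% interval -0.49 to 0.42, adjusted p = 0.965), its sign turning with 3 of 4 other scalings. Snord17, a box C/D RNA in an intron of Snx5 (chr2:144265979-144266216, minus strand), stood at 3955, 4881 and 4036 TPM in Cd47f/f. Cd47ΔT libraries had 5298, 4588 and 4283 TPM. It was the most evenly measured member, with a within-genotype SD of 0.16 on the log2 scale. Its log2 fold change of 0.14 ± 0.13 (95% interval -0.16 to 0.44, adjusted p = 0.695) corresponds to a fold between 0.896 and 1.35.

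Snord15b ranked 7th among all genes by mean cDC2 TPM, Snord15a 12th and Snord17 19th. In Cd47f/f library 1 a level of 119 TPM at 137 bases, or 70.7 TPM at 148 bases, can be the lowest step above 0. How far lengths near the limit set these ranks, and the ratio of the Snord15 genes below, was not tested. Snord15b stood at 23637 and 25415 TPM in Cd47f/f libraries 1 and 2 and was listed at 0 in library 3. Cd47ΔT libraries gave 22529, 17446 and 22230 TPM. Apart from that 0, both controls lay above all 3 Cd47ΔT libraries. With it, the fitted log2 fold change was 4.61 ± 3.49 (adjusted p = 0.626). With the uncovered 0 left out, the value became -0.25 (adjusted p = 0.571). Cd47f/f library 3 covers no gene under 147 bases, and it listed at 0 also Gm25835, an annotated snoRNA gene of 144 bases outside the symbol rule, which read 27588 to 37678 TPM in the other 5 libraries. Where both Snord15 genes had a value, Snord15b was 2.22 to 3.04 times as high as Snord15a. Part of Snord15b lies in an exon of a retained-intron transcript of Rps3, so reads of the host can add to it.

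The 4 scaRNA members were all at least 265 bases long and above 0 in all 6 cDC2 libraries. Scarna10 (chr6:125186359-125186683, minus strand), within the condensin subunit gene Ncapd2, read 598, 483 and 688 TPM in Cd47f/f and 745, 769 and 560 TPM in Cd47ΔT. The 2 highest libraries were Cd47ΔT, but library 3 lay among the controls. The log2 fold change was 0.23 ± 0.17 (95% interval -0.15 to 0.61, adjusted p = 0.609). Scarna10 overlaps a retained-intron transcript of Ncapd2 and a sense-intronic gene, Gm28967, so its share of those reads is uncertain. Scarna2 (chr3:108554338-108554751, minus strand), a guide of U2 snRNA methylation with no annotated host, read 452, 267 and 243 TPM in Cd47f/f. In Cd47ΔT it read 369, 327 and 268 TPM, all inside the control range. Its log2 fold change was 0.0461 ± 0.23 (95% interval -0.49 to 0.59, adjusted p = 0.960).

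Scarna13 (chr12:105031075-105031349, minus strand), in an intron of Snhg10, read 378, 288 and 274 TPM in Cd47f/f and 339, 276 and 231 TPM in Cd47ΔT. The log2 fold change was -0.16 ± 0.17 (95% interval -0.55 to 0.24, adjusted p = 0.748). Scarna6 (chr1:87784556-87784820, plus strand) lies in an intron of the autophagy gene Atg16l1. It read 65.1, 97.7 and 39.9 TPM in Cd47f/f and 94.8, 41.8 and 2.74 TPM in Cd47ΔT. The fitted difference of -1.37 ± 1.05 (95% interval -3.81 to 1.06, adjusted p = 0.629) rested on Cd47ΔT library 3, without which it was -0.00697.

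Among the box H/ACA members, the 2 copies of U17 were read together because their split is uncertain. The sum of Snora73a and Snora73b was 97.4, 75.3 and 146 TPM in Cd47f/f and 142, 101 and 119 TPM in Cd47ΔT, so the genotypes overlapped. Snora73a alone had a log2 fold change of -0.0320 ± 0.29 (95% interval -0.71 to 0.65, adjusted p = 0.976), with a sign that turned under all 4 other scalings. For Snora73b it was 0.68 ± 0.52 (95% interval -0.51 to 1.88, adjusted p = 0.624), and 1.36 without Cd47f/f library 3, the control in which it was highest at 110 TPM. Snora73a took between 25.0% and 72.6% of the pair. In 3 libraries the higher copy was a whole multiple of the lower, 2 times in Cd47f/f library 2, 3 times in Cd47f/f library 3 and 2 times in Cd47ΔT library 2, within 0.0148%.

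Such steps show how coarse the values of short genes are. In Cd47f/f library 1, Snora16a and Snora21, both 137 bases long, stood at 239 and 119 TPM, a ratio of 2. In the same library Snord15a stood 151 times as high as Snora57, which has the same 148 bases and read 70.7 TPM. A level of 70.7 or 119 TPM in such a gene can therefore be the lowest step above 0, while Snord15a rests on many such steps. TPM keep no record of depth, so the number of reads behind each value is unknown and no counting error is given.

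The remaining box H/ACA members each had a value at 0 in at least 1 cDC2 library. Snora23 (chr7:110046364-110046547, plus strand), in an intron of the nuclear import receptor gene Ipo7, read 16.7, 55.9 and 73.3 TPM in Cd47f/f. In Cd47ΔT it was listed at 0 and read 37.9 and 17.3 TPM (log2 fold change -2.24 ± 1.25, 95% interval -5.14 to 0.66, adjusted p = 0.503). Its 184 bases were covered in all 6 libraries. Snora74a, on chromosome 18, was listed at 0 in 3 libraries that cover its 196 bases. It read 0, 5.50 and 0 TPM in Cd47f/f and 78.9, 45.8 and 0 TPM in Cd47ΔT (log2 fold change 3.06 ± 1.58, 95% interval -0.61 to 6.73, adjusted p = 0.466). It passed the level rule through 1 control and 2 Cd47ΔT libraries.

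Snora7a (chr6:115807975-115808114, minus strand), within the ribosomal protein gene Rpl32, read 206 and 251 TPM in Cd47f/f libraries 1 and 2 and was listed at 0 in library 3. In Cd47ΔT it read 473, 79.0 and 216 TPM. Its log2 fold change of 2.43 ± 1.95 (adjusted p = 0.648) became -0.18 (adjusted p = 0.938) when the 0 under the length limit was left out. Snora70 (chrX:74272484-74272620, plus strand), within Rpl10, read 115 and 141 TPM in Cd47f/f libraries 1 and 2 and 632 TPM in Cd47ΔT library 2. The other 3 libraries do not cover its 137 bases and listed it at 0. Its log2 fold change was -1.57 ± 2.79 (adjusted p = 0.854) with the zeros. Without them it was 2.30, a comparison of 2 libraries with 1. The lone Cd47ΔT library has no spread of its own there, so no p-value is given. Both genes overlap an annotated exon of their host, so host reads can add to them.

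**Figure D3:**
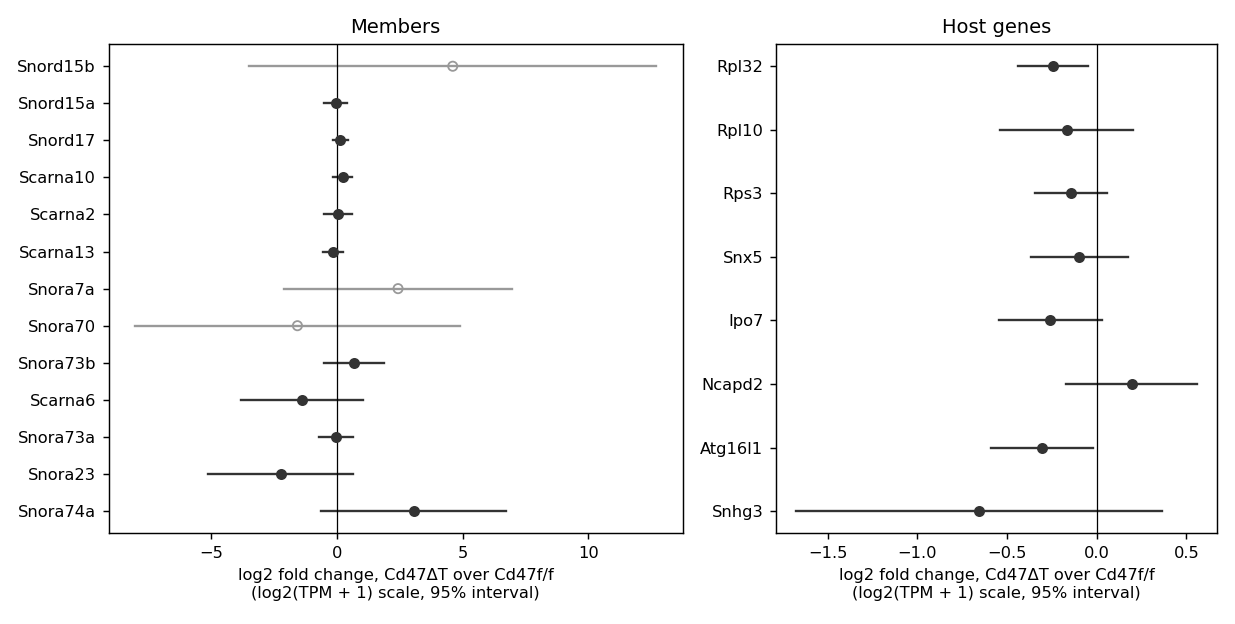
log2 fold change (Cd47ΔT over Cd47f/f, on log2(TPM + 1)) with its 95% interval by limma, for the 13 members (left) and their 8 host genes in the table (right), on axes of different width. Grey open points mark the 3 members with a 0 in a library that does not cover their length; the interval includes 0 in every member.

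Summed over the 13 members, the level was lowest in Cd47f/f library 3, the one library that does not cover Snord15b. The members took 4.02%, 4.03% and 1.23% of all TPM in Cd47f/f libraries 1 to 3 and 3.99%, 3.13% and 3.62% in Cd47ΔT libraries 1 to 3. Between 88.1% and 96.1% of that was Snord15a, Snord15b and Snord17. How far lengths near the limit set these shares was not tested. Over the 10 members that every library covers, the shares were 1.62%, 1.45% and 1.23% in Cd47f/f and 1.69%, 1.31% and 1.37% in Cd47ΔT, and the genotypes overlapped. In bulk samples, fewer cells of a type and less RNA per cell cannot be told apart.

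**Figure D4:**
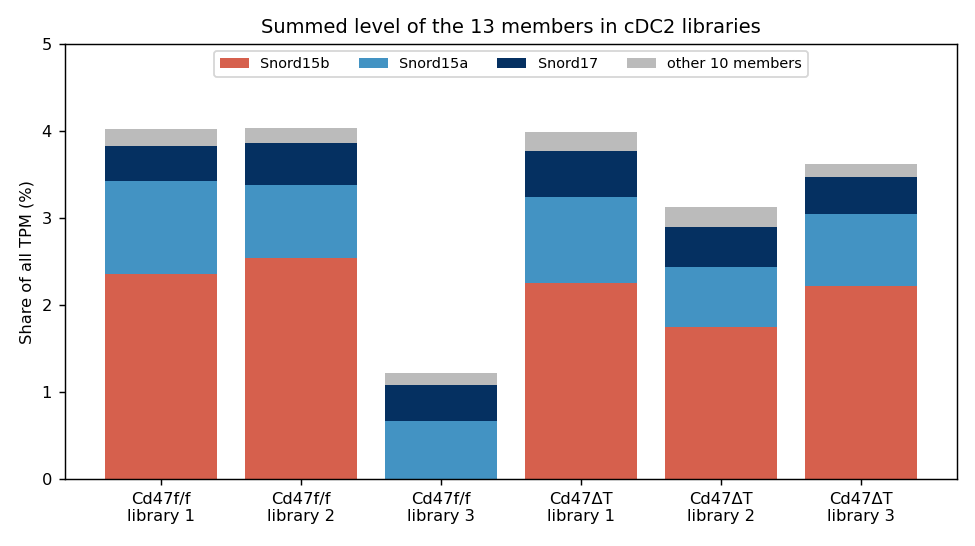
Share of all TPM (%) taken by the 13 members in each cDC2 library, stacked by Snord15b, Snord15a, Snord17 and the other 10. Cd47f/f library 3, whose shortest gene above 0 is 147 bases long, has no Snord15b and a total of 1.23%, against 3.13% to 4.03% in the other 5.

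The same limit bears on all small non-coding RNA genes together (snoRNA, scaRNA, snRNA, miRNA, misc_RNA, ribozyme, rRNA, sRNA and scRNA types), of which the members took 7.63% to 22.7%. These genes took 17.7%, 21.3% and 16.1% of TPM in Cd47f/f and 25.2%, 22.1% and 21.8% in Cd47ΔT, without overlap. Counting only genes of at least 147 bases, which every library covers, the shares were 11.0%, 14.01% and 16.1% in Cd47f/f and 18.2%, 15.9% and 15.8% in Cd47ΔT, and the genotypes overlapped. In single-gene tests, 1 of 74 other small RNA genes was called higher and none lower. Their median log2 fold change was 0.34, beside 0.0461 for the members, and with uncovered zeros left out these medians were 0.17 and -0.0320. Of the other annotated snoRNA and scaRNA genes, 33 were tested and none was called.

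Host genes were read next, since most of these RNAs are cut from introns. The annotation gave a host on the same strand for 12 of the 13 members, and 8 hosts, of 10 members, are in the table. Snhg10 and AC121821.1 were not analysed here. No host was called by limma, beside 0.63% of all genes, and 2 of 8 (25.0%) had an unadjusted p under 0.05, beside 13.4%. The ribosomal protein gene Rpl32 was at 1832, 1665 and 1838 TPM in Cd47f/f and 1484, 1519 and 1497 TPM in Cd47ΔT (log2 fold change -0.24 ± 0.0843, adjusted p = 0.267). Atg16l1 was at 32.2 ± 0.816 TPM in Cd47f/f and 25.9 ± 2.07 TPM in Cd47ΔT, for a log2 fold change of -0.30 ± 0.12 (adjusted p = 0.331). In these 2 hosts, 25.0% of 8, the genotypes did not overlap, beside the 19.9% of all genes. Rps3, host of both Snord15 genes, had 559 ± 26.3 TPM in controls and 506 ± 29.2 TPM in Cd47ΔT, with a log2 fold change of -0.14 ± 0.0861 (adjusted p = 0.527). Snhg3 is a non-coding gene that holds both U17 copies, Snora73b in an intron and Snora73a overlapping an exon of 1 transcript, and Gm17300 lies across both on the other strand. Snhg3 read 17.2, 6.43 and 25.9 TPM in Cd47f/f and 6.99, 8.64 and 11.1 TPM in Cd47ΔT (log2 fold change -0.66 ± 0.44, adjusted p = 0.581). Of the 8 hosts, 7 had a log2 fold change below 0 (median -0.21, beside -0.0729 over all genes). Like signs in a pair therefore mostly mark members below 0. Over the 10 member and host pairs the fold changes had the same sign in 6 and opposite signs in 4. Pearson r was 0.0695, as a description across pairs that share libraries and, in 2 cases, a host. With uncovered zeros left out, which turns Snord15b, Snora7a and Snora70, the signs were the same in 7 and opposite in 3 (r = 0.0410).

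Genes of the proteins that bind, build or trim these RNAs did not pass the test either. Of 45 listed genes of the box C/D and H/ACA particles, 43 were in the table and tested, and limma called none (3 with an unadjusted p under 0.05, or 6.98%, beside 13.4% of all genes). The median log2 fold change was -0.0127. Fbl, which encodes fibrillarin, read 74.3 ± 4.04 TPM in Cd47f/f and 68.6 ± 17.9 TPM in Cd47ΔT (log2 fold change -0.14 ± 0.18, adjusted p = 0.790). The other box C/D core genes were Nop56 (-0.15 ± 0.15), Nop58 (0.23 ± 0.15) and Snu13 (0.0225 ± 0.13), all as log2 fold changes with adjusted p of 0.570 or more. Dkc1, which encodes the pseudouridine synthase dyskerin, had 31.3 ± 11.1 TPM in controls and 34.8 ± 2.97 TPM in Cd47ΔT, with a log2 fold change of 0.22 ± 0.27 (adjusted p = 0.781). Its partners Gar1 (0.19 ± 0.27), Nhp2 (0.0528 ± 0.15) and Nop10 (0.32 ± 0.17) did not pass. The smallest unadjusted p were those of the exosome subunit gene Exosc3 (log2 fold change 0.35 ± 0.13, adjusted p = 0.275), the box C/D assembly factor gene Znhit3 (-0.75 ± 0.28, adjusted p = 0.29998) and Phax, an export adaptor for small nuclear RNAs (-0.46 ± 0.18, adjusted p = 0.318). Next came Znhit6, also an assembly factor gene (-1.02 ± 0.52, adjusted p = 0.462).

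In T cells the members were almost absent. Per the labels' protocols, the T cell kit was TruSeq stranded mRNA, whereas SMART-seq stranded was used for cDC2s, so cell type and kit cannot be told apart in these levels. Of the 13 members, 7 were listed at 0 in all 4 T cell libraries, and the highest value of any member was 11.9 TPM. Scarna2 read 2.21 and 1.23 TPM in Cd47f/f and 1.39 and 2.66 TPM in Cd47ΔT T cells. Snora73b read 11.9 and 4.44 TPM in Cd47f/f, was listed at 0 in Cd47ΔT library 1 and read 6.87 TPM in library 2. Snord17, at 4507 TPM on average in cDC2s, read 1.31 and 1.55 TPM in 1 library of each genotype and was listed at 0 in the other two. These 3 members passed the T cell filter, and limma called none of them, where 9.37% of 12453 genes were called. The log2 fold change of Snora73b was -1.58 ± 0.94 (adjusted p = 0.434). Without Cd47ΔT library 2, which leaves the library at 0 alone, it was -3.06. With the replicate number as a block, limma called Snora73b (adjusted p = 5.26e-08). Its same-numbered libraries moved in opposite directions, so that p does not reflect its own spread. The difference between its genotype effects, T cells minus cDC2s, was -2.26 ± 1.11 by limma's interaction term (adjusted p = 0.367, where 5.7% of 10650 genes were called). That difference was -0.0681 ± 0.52 for Snord17 (adjusted p = 0.977) and 0.0986 ± 0.40 for Scarna2 (adjusted p = 0.953).

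As checks on the labels, Cd47 read 40.4 and 51.7 TPM in Cd47ΔT T cells against 138 and 233 TPM in control T cells, and 135 to 162 TPM in all cDC2 libraries. All 10 cDC2 and dendritic cell markers listed stood at 1 TPM or more in every cDC2 library. Of these, the integrin gene Itgam and the lectin gene Cd209a were lower in Cd47ΔT (log2 fold change -1.72 ± 0.14 and -1.54 ± 0.17, adjusted p = 0.01195 and 0.01998 by limma). No marker of other cells was called in any of 10 lists. Those below the level filter, among them the neutrophil markers at 0 in every cDC2 library, were not tested. The summed level of plasma cell markers was 4.99 to 7.94 TPM in Cd47f/f and 0.330 to 2.06 TPM in Cd47ΔT, without overlap. That of the cDC2 and dendritic cell markers was 10296 to 13133 TPM and 9653 to 9838 TPM, also without overlap. Most of the latter sum was H2-Ab1, which limma did not call (adjusted p = 0.528). It read 9437, 8843 and 11544 TPM in Cd47f/f and 8668, 8398 and 8507 TPM in Cd47ΔT. T cell markers summed to 0.400 to 1.32 TPM in Cd47f/f and 1.01 to 9.41 TPM in Cd47ΔT, with Cd3g listed at 0 throughout. The other lists overlapped, with 19.9 to 30.0 TPM in Cd47f/f and 21.5 to 24.4 TPM in Cd47ΔT for B cell markers and 141 to 184 TPM and 103 to 145 TPM for macrophage markers. Erythroid markers summed to 17.1 to 92.1 TPM and 28.3 to 163 TPM. For cDC1, plasmacytoid dendritic cell, NK cell and platelet markers no library exceeded 24.9 TPM. Their part in the members' values was not tested.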

How the data were processed

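The deposited table gives TPM for 45706 Ensembl genes in 10 libraries. Per the submitters' processing notes, the tools were STAR, RSEM and DESeq2, with no role or version, and the build GRCm38. The annotation release, strand setting and effective lengths are not stated there. Gene symbols, types, lengths, positions and host genes came from GENCODE M21 of GRCm38, which matched 45143 identifiers (98.8%). A host is a gene on the same strand whose span holds the whole member.

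Each cell type was fitted on its own, on log2(TPM + 1), over genes that reached 1 TPM in 3 or more cDC2 or 2 or more T cell libraries. This scale understates changes of low genes. The test was limma 3.58.1 in R 4.3.3 with a variance trend and genotype as the only term, with Benjamini-Hochberg adjustment over all genes tested. Its steps were tested on simulated data. Intervals are limma's moderated 95% intervals. The members and lists were chosen with earlier results of these data known. The genes named are the members, their hosts, those just outside the level rule, the core particle proteins and the 4 listed particle genes of smallest unadjusted p. Sequences were aligned with MAFFT 7.526. Alternatives were pseudocounts, filters, scalings, variance settings, a joint fit, a replicate block and leaving out each library. Chosen after seeing the data was leaving out zeros in libraries whose shortest gene above 0 is longer than the gene, and a sum over members that every library covers. Python 3.11.15, pandas 2.3.3 and matplotlib 3.10.9 made tables and figures.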

Additional observations from a re-analysis of the deposited data

How the results depend on the processing

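Of 241 values of single members in cDC2s under 19 alternatives, 222 kept their sign and 19 reversed. None passed the test where each genotype kept more than 1 library. Snora70 and Snora74a fell below the level filter with some libraries left out and have no value there. With zeros under a library's length limit left out, the log2 fold change reversed to -0.25 for Snord15b, -0.18 for Snora7a and 2.30 for Snora70. The value of Snora70 compares 2 libraries with 1. Snord15a reversed to 0.0474 with median-of-ratios scaling, 0.0337 with protein-coding scaling and 0.0510 without small RNA genes. Snora73a reversed to 0.0516 with quantile, 0.0473 with median-of-ratios and 0.0335 with protein-coding scaling, and to 0.0507 without small RNA genes. Leaving out 1 library at a time, values crossed 0 for Snord15b (-0.25 to 7.07), Snord15a (-0.19 to 0.14), Scarna2 (-0.12 to 0.32), Snora7a (-0.18 to 3.81), Snora73a (-0.26 to 0.24), Fbl (-0.33 to 0.0538), Snu13 (-0.0964 to 0.0937), Dkc1 (-0.11 to 0.40), Gar1 (-0.0336 to 0.40) and Nhp2 (-0.0902 to 0.17). In T cells they crossed 0 for Snord17 (-0.53 to 0.75) and Scarna2 (-0.16 to 0.45). Over all genes in cDC2s, calls higher and lower went from 30 and 46 to 2 and 4 with no filter, 7 and 5 with no variance trend, 68 and 103 when both cell types were fitted jointly, and 0 to 9 and 0 to 6 with 1 library left out. Other small RNA genes called higher went from 1 to 0 with no filter and no variance trend, and to 0 to 1 with 1 library left out. Leaving out 1 T cell library leaves 1 in its genotype, so calls from those fits are not given. The cause of these shifts was not tested.

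With the replicate number as a block, calls over all cDC2 genes were 3 higher and 1 lower, and other small RNA genes called higher 0. Members called lower in T cells were 1 (Snora73b, log2 fold change -1.58). Its same-numbered T cell libraries moved in opposite directions, so that call does not reflect its own spread. Same-numbered cDC2 libraries had correlations of their deviations of -0.0438, 0.0591 and 0.119, and not every library correlated best with its own number. Whether same-numbered libraries share a batch cannot be told from 3 per genotype, and T cell libraries were not checked. The planned sum over the shortest members gave no value, since all members are at least 137 bases long. TPM hold no depth, which limits statements on values near the lowest step.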

Other observations

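Of the 150 genes with a Snord, Snora or Scarna symbol, 17 outside the level rule were above 0 TPM in at least 1 cDC2 library, 14 of them in 1 library and 3 in 2. Cd47f/f library 2, which has the lowest length limit, was the sole cDC2 library with a value for Snora44, Snora24, Snora15, Snora3, Snora9, Snora64 and Snord118, genes of 129 to 135 bases. Among these, Snord118 is U8, a box C/D RNA needed for processing of 28S and 5.8S rRNA, and it read 160 TPM. Snora64 read 409 TPM there, and 33.0 and 16.9 TPM in library 1 of each genotype in T cells. Snora81 read 67.6 TPM in Cd47f/f library 2 only, although its 178 bases were covered in every library. These values have no replicate and were not compared between genotypes.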
